A study of Mus musculus with 4 samples.

Results

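The transcription factors that build enteroendocrine cells, the hormone-secreting cells of the gut epithelium, were followed in mouse colonoids given butyrate. The group holds 8 genes, *Neurog3*, *Neurod1*, *Pax4*, *Pax6*, *Nkx2-2*, *Insm1*, *Isl1* and *Rfx6*, taken by gene symbol from the 36144 rows of the count table. All 8 were found, and all 8 had more than 10 counts in at least 2 libraries, the filter that 13979 genes passed. Colonoids are organoids grown from colonic crypts in a gel, where stem cells renew and give rise to the mature cell types. The 4 libraries were made from colonoids without treatment and with sodium butyrate, a short-chain fatty acid made by gut bacteria, at 2 mM, each after 48 h (day 2) and 72 h (day 3), 1 library per condition. The labels and design text give passage 3 and a WT male mouse aged 24 weeks, whereas the study's text names a single Hes1-GFP reporter mouse as the source of these colonoids and describes its cultures as from proximal colon. The sources thus differ on the genotype. The 4 libraries therefore hold no replicate animals. All cultures shared a crypt medium with EGF, Noggin, R-spondin, B27, N2, the GSK3 inhibitor CHIR99021 and the ROCK inhibitor Y-27632.

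Library totals lay between 20790225 and 24207840 counts, and a floor of 3 counts corresponded to at most 0.144 CPM, the count scaled to the library total. Levels are given as counts, or as normalised counts, which are counts divided by the size factor of the library. Differences are given as log2 fold changes after adding 1 to each normalised count, or on the plain ratio for summed counts. As each condition was sequenced once, differences cannot be set against replicate error, and no p-values were computed. The intervals are exact 95% Clopper-Pearson intervals on each pair of counts and cover counting error only. In bulk RNA, fewer cells of a type and less RNA per cell cannot be told apart. Markers of colonic epithelium were abundant, with *Epcam* between 25463 and 33929 counts in each library. Of 11 such genes, 1 was at least 1.5-fold lower and 1 higher with butyrate at 48 h, and 3 lower and 1 higher at 72 h, with medians of −0.02 and −0.28. Of all genes that passed the filter, 8.90% were lower and 13.1% higher by this size at 48 h, and 8.53% and 9.50% at 72 h. The goblet cell mucin *Muc2* was counted 71452 times without butyrate and 57372 times with it at 48 h, against 120956 and 60629 at 72 h, so that this marker of another epithelial cell type was also lower with butyrate at both times. Its part in the lower factor counts was not tested.

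Enteroendocrine cells arise from crypt progenitors in which Notch signalling is low and the secretory regulator *Atoh1* is active. *Neurog3*, a basic helix-loop-helix factor, is expressed only briefly and commits a progenitor to the endocrine fate. *Neurod1*, *Insm1*, *Pax4*, *Nkx2-2*, *Rfx6*, *Isl1* and *Pax6* act at or after this step, and several persist in mature cells, where *Pax6*, *Isl1* and *Nkx2-2* take part in hormone gene expression and the choice of endocrine subtype.

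*Neurog3* and *Neurod1* bind the E-box, a short motif with the letters CANNTG, which reads the same on both strands. The stretches before the start sites of *Neurog3*, *Neurod1* and *Nkx2-2* are shown because *Neurog3* starts the cascade, *Neurod1* follows it, and *Nkx2-2* was lower with butyrate by over 1.5-fold at both times. They come from the RefSeq promoter table (build GRCm38.p6), which held 7 start sites for 6 of the genes. *Pax4* and *Insm1* had no entry. The E-boxes are in capitals, and bases that GENCODE release M21 places in an exon of the same gene were left off. The *Neurog3* stretch is chr10:62132840-62133089 on the plus strand. On the minus strand are the *Neurod1* stretch, chr2:79456752-79456886, and the *Nkx2-2* stretch, chr2:147186456-147186652. The *Nkx2-2* stretch lies inside the annotated gene, which spans 147177546 to 147194243, so its E-boxes precede an internal start site.
Neurog3: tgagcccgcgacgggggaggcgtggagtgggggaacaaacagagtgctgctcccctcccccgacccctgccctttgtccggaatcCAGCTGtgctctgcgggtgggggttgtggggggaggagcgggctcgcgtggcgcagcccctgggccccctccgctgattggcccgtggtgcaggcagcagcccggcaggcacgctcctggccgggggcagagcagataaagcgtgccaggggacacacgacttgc
Neurod1: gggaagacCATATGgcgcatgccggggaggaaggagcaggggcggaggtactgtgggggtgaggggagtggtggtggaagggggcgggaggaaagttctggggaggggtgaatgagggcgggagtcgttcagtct
Nkx2-2: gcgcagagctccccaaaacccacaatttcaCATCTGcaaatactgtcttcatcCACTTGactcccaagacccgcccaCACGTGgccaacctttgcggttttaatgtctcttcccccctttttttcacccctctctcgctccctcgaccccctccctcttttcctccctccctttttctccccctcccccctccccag

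In the full 250 bases before each start, *Neurog3* held 1 E-box, *Neurod1* held 1 and *Nkx2-2* held 3. Of the 7 start sites of the group, 5 had at least 1 E-box, compared with 66.2% of 32851 promoters of the same length. This count includes exon bases, and for the second *Pax6* start site all 250 bases lie in *Pax6* exons of GENCODE M21. The form CAGCTG, present before *Neurog3* and *Isl1*, occurred in 13.0% of all promoters. The start site of *Rfx6* and the first of the 2 *Pax6* start sites had no E-box within this window. This says only that these letters are not there. The *Rfx6* window, from 51685268 to 51685517, lies inside the gene, which is annotated from 51677756. A match describes the letters only and not binding.

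Levels were compared between genes per kb of exon length. In untreated colonoids at 48 h, *Neurog3* had the highest level, at 258 normalised counts per kb, above *Insm1* at 110 and *Neurod1* at 104. *Pax4* followed at 69.3, *Nkx2-2* at 49.8 and *Rfx6* at 31.1, and *Pax6* and *Isl1* were far lower, at 5.07 and 4.65. In all, 3 neighbouring pairs in this order had overlapping counting intervals, namely *Insm1* and *Neurod1*, *Pax4* and *Nkx2-2*, and *Pax6* and *Isl1*. In untreated colonoids at 72 h, *Neurog3* was at 107 normalised counts per kb and overlapped with *Insm1* at 117, which was then the highest, and with *Neurod1* at 94.1. This order depends on the length used, since with the median length of coding transcripts *Neurog3* was at 170.8 and *Insm1* at 117. In butyrate-treated colonoids *Neurog3* was the highest at both times, and *Insm1* was at 41.9 normalised counts per kb at 48 h, below *Neurod1* at 78.5, and at 82.6 at 72 h, above *Neurod1* at 54.6. The exon length of *Pax6* joins all its transcript forms and is long, at 11.7 kb, so its level depends on the length used too. With the median length, *Pax6* was at 21.3 normalised counts per kb in untreated colonoids at 48 h, below *Rfx6* at 40.4 and above *Isl1* at 9.91.

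**Figure D1:**
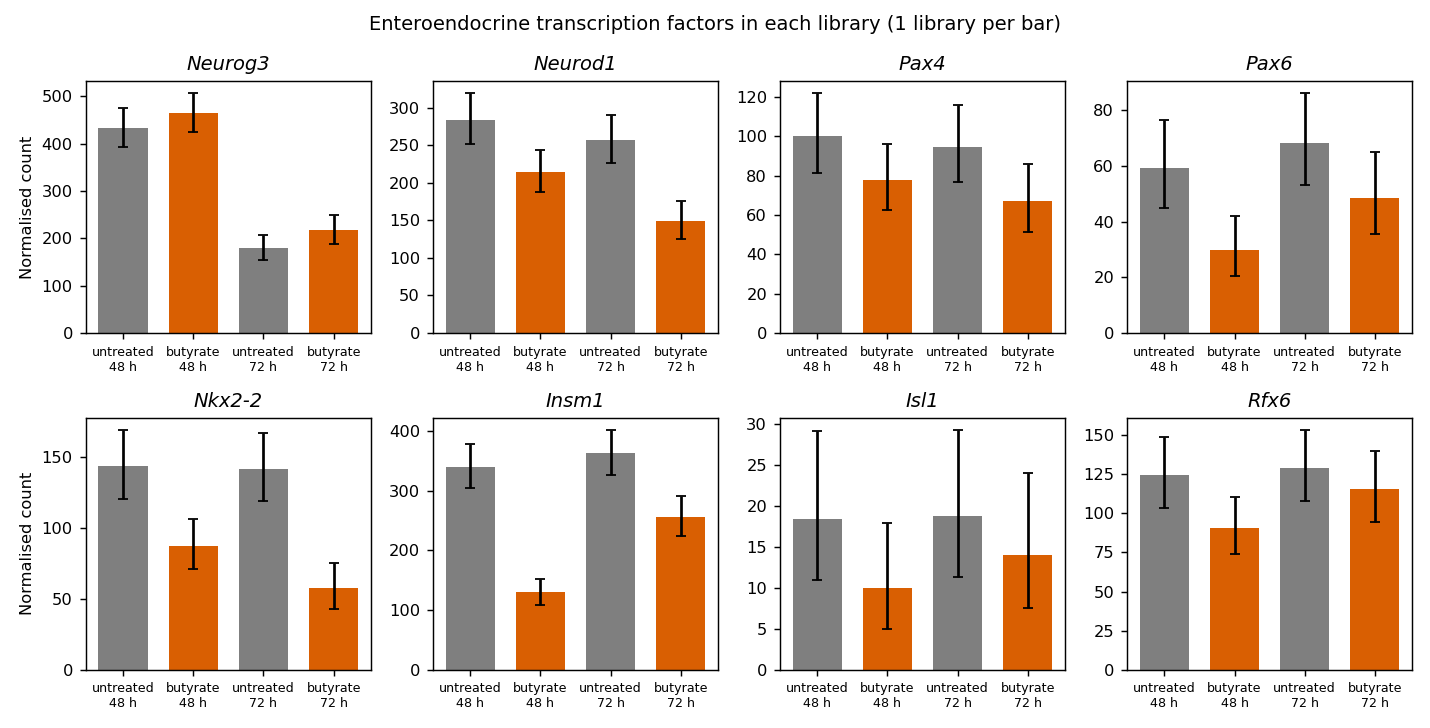
Normalised counts of the 8 transcription factors in untreated (grey) and butyrate-treated (orange) colonoids at 48 h and 72 h, 1 library per bar, with exact 95% Poisson intervals. *Neurog3* is high in both 48 h libraries, from 433 to 465 normalised counts, and low in both 72 h libraries, from 179 to 217, while the other factors are lower in each butyrate library than in the untreated library of the same time.

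*Neurog3*, on chromosome 10 from 62133090 to 62134763 on the plus strand of GRCm38, differed more between the times than between the treatments. It was counted 423 times without butyrate and 512 times with it at 48 h, against 181 and 201 at 72 h. Both 48 h libraries were above both 72 h libraries. With butyrate the log2 difference was 0.10 (−0.09 to 0.29) at 48 h, then 0.28 (−0.02 to 0.58) at 72 h, so that a difference with butyrate was not detectable at this depth. Between 48 h and 72 h it was 2.41-fold lower in untreated colonoids (log2 −1.27, −1.53 to −1.02) and 2.14-fold lower with butyrate (log2 −1.09, −1.34 to −0.86). The gene *Fam241b* overlaps *Neurog3* on the opposite strand and had between 145 and 205 counts, and whether the counting used the strand of the reads is not given in the sources used here.

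*Neurod1* lies directly downstream of *Neurog3* in the endocrine cascade and occupies chromosome 2 from 79452521 to 79456751 on the minus strand. It was counted 278 times without butyrate and 236 times with it at 48 h, against 260 and 138 at 72 h. The butyrate library at 72 h was the lowest and the 2 untreated libraries the highest. *Neurod1* was 1.33-fold lower with butyrate at 48 h (log2 −0.41, −0.67 to −0.15) and 1.72-fold lower at 72 h (log2 −0.78, −1.09 to −0.48). *Cerkl*, which overlaps it on the same strand, had at most 24 counts in a library.

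*Insm1*, a zinc finger factor needed for endocrine differentiation, showed the largest difference with butyrate at 48 h. It lies on chromosome 2 from 146221921 to 146225020 on the plus strand. *Insm1* was counted 333 times without butyrate and 143 times with it at 48 h, against 368 and 237 at 72 h. The butyrate library at 48 h stood apart below the other libraries, and the butyrate library at 72 h was between it and the untreated ones. *Insm1* was 2.61-fold lower with butyrate at 48 h (log2 −1.39, −1.69 to −1.10) and 1.42-fold lower at 72 h (log2 −0.50, −0.75 to −0.27). The difference between these changes, 72 h minus 48 h, was 0.88 on the log2 scale (0.51 to 1.25, a normal approximation covering counting error). For each of the other 7 genes the corresponding interval included 0.

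*Nkx2-2*, a homeodomain factor that acts in subtype specification, showed the largest difference with butyrate at 72 h. It lies on chromosome 2 from 147177546 to 147194243 on the minus strand. *Nkx2-2* was counted 140 times without butyrate and 96 times with it at 48 h, against 143 and 53 at 72 h. Both butyrate libraries were below both untreated libraries. It was 1.64-fold lower with butyrate at 48 h (log2 −0.71, −1.11 to −0.33) and 2.44-fold lower at 72 h (log2 −1.29, −1.79 to −0.84). Antisense transcripts are annotated across *Nkx2-2* and *Pax6* and were not analysed here.

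The paired-domain factors *Pax4* and *Pax6* both had lower counts with butyrate at both times. *Pax4*, on chromosome 6 from 28442334 to 28449353 on the minus strand, was counted 98 times without butyrate and 86 times with it at 48 h, against 96 and 62 at 72 h. Its log2 fold change was −0.36 at 48 h, with an interval of −0.80 to 0.07 that included 0, and −0.50 at 72 h (−0.99 to −0.03). *Pax6*, on chromosome 2 from 105668900 to 105697364 on the plus strand, was counted 58 times without butyrate and 33 times with it at 48 h, against 69 and 45 at 72 h. The log2 difference was −0.96 (−1.65 to −0.35) at 48 h, then −0.48 at 72 h, where the interval of −1.06 to 0.08 included 0. For *Pax4* only the 72 h interval, and for *Pax6* only the 48 h interval, lay below 0, but for both genes the interval of the difference between the times included 0.

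*Rfx6*, a winged-helix factor that acts in endocrine differentiation, was lower with butyrate beyond counting error at 48 h and not at 72 h. It lies on chromosome 10 from 51677756 to 51730432 on the plus strand and was counted 122 times without butyrate and 100 times with it at 48 h, against 131 and 107 at 72 h. The log2 difference was −0.46 (−0.86 to −0.07) at 48 h, then −0.16 (−0.54 to 0.22) at 72 h. The interval of the difference between the times, −0.24 to 0.82, included 0. *Isl1*, a LIM-homeodomain factor on chromosome 13 from 116298281 to 116309689 on the minus strand, had the fewest counts of the group. It was counted 18 times without butyrate and 11 times with it at 48 h, against 19 and 13 at 72 h, with log2 fold changes of −0.82 (−2.11 to 0.28) and −0.39 (−1.56 to 0.68). Neither difference in *Isl1* was detectable at this depth.

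**Figure D2:**
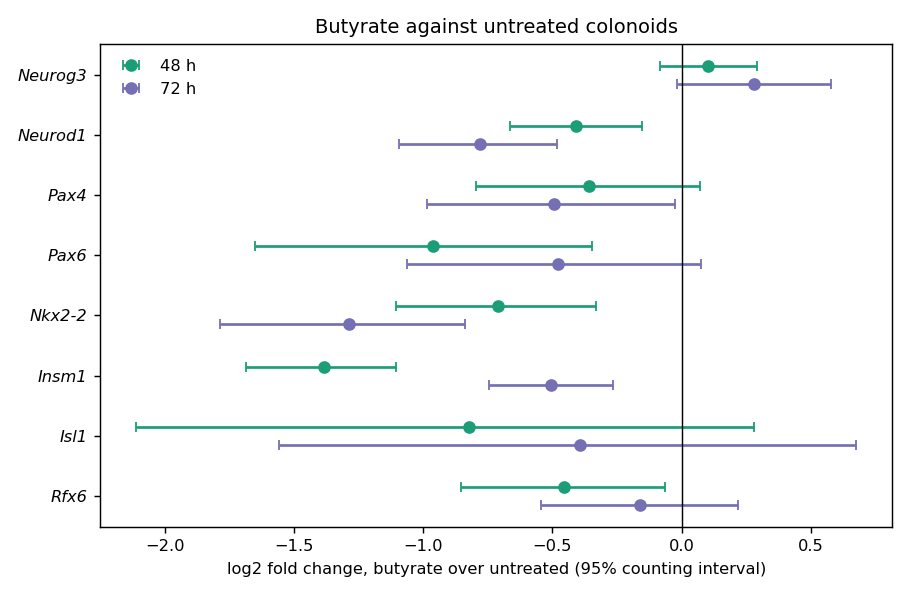
Log2 fold change of butyrate over untreated for each transcription factor at 48 h (green) and 72 h (purple), with exact 95% intervals for counting error. All genes except *Neurog3* have values below 0 at both times, and the 48 h and 72 h intervals of *Insm1* do not meet.

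As a group, 7 of the 8 genes were lower with butyrate at both times and *Neurog3* was higher at both. Of the 13979 genes that passed the filter, 31.3% were lower at both times. At least 1.5-fold lower at 48 h were *Pax6*, *Nkx2-2*, *Insm1* and *Isl1*, 4 of 8, compared with 8.90% of all genes. Of these, *Isl1* had only 18 and 11 counts and an interval that included 0 (−2.11 to 0.28). Genes with few counts pass 1.5-fold more readily through counting error, so this share also depends on expression level. At 72 h these were *Neurod1* and *Nkx2-2*, 2 of 8, compared with 8.53%. *Nkx2-2* was past 1.5-fold at both times, as were 2.73% of all genes. None of the 8 was at least 1.5-fold higher at either time, whereas 13.1% of all genes were at 48 h and 9.50% at 72 h. The counting interval lay below 0 for 5 of 8 genes at 48 h and for 4 of 8 at 72 h, compared with 31.3% and 26.4% of all genes. These intervals narrow as counts grow, so the share depends on how highly a gene is expressed. The median log2 fold change of the group was −0.58 at 48 h and −0.49 at 72 h, beside −0.01 and 0.00 for all genes. Summed over the 8 genes, there were 1470 counts without butyrate and 1217 with it at 48 h, against 1267 and 856 at 72 h, giving log2 fold changes of −0.45 (−0.56 to −0.33) and −0.44 (−0.56 to −0.31). Without *Neurog3*, which had the most counts over the 4 libraries together, the sums differed by −0.74 (−0.88 to −0.60) at 48 h and −0.60 (−0.74 to −0.46) at 72 h.

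**Figure D3:**
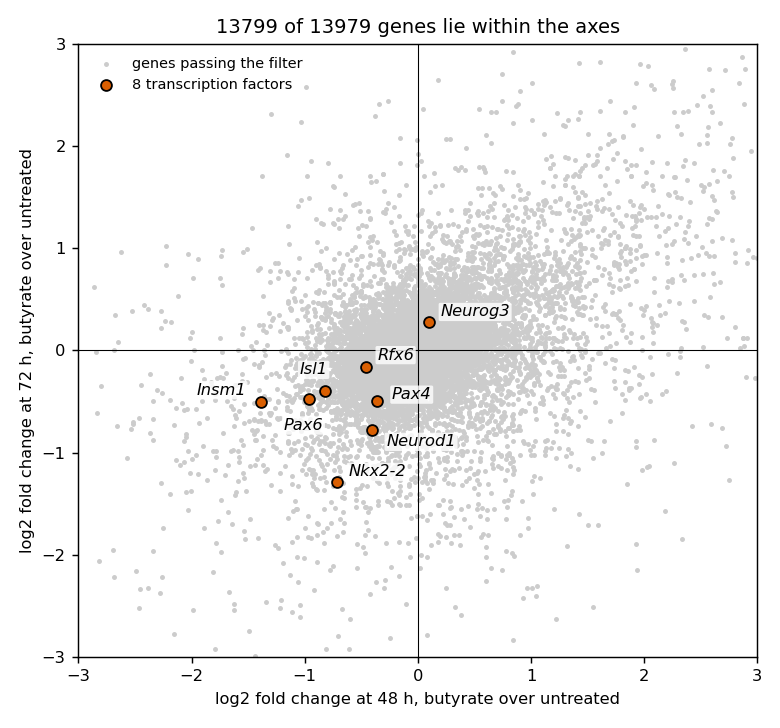
Log2 fold change of butyrate over untreated at 48 h (horizontal) against 72 h (vertical) for all genes that passed the filter (grey) and for the 8 transcription factors (orange). Genes beyond 3 on either axis are not drawn. The lower left corner holds 7 of the 8 factors, and *Neurog3* lies in the upper right corner at 0.10 and 0.28.

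Over time, *Neurog3* was the only one of the 8 genes past 1.5-fold between the untreated libraries, where 5.17% of all genes were at least 1.5-fold lower and 6.82% higher at 72 h. The other 7 genes had log2 changes from −0.15 (*Neurod1*) to 0.20 (*Pax6*) in untreated colonoids, and each of their intervals included 0. Their summed counts were 1047 at 48 h and 1086 at 72 h, a log2 change of 0.00 (−0.12 to 0.13). With butyrate, the changes from 48 h to 72 h went in both directions. *Neurog3* and *Nkx2-2* were at least 1.5-fold lower at 72 h, 2 of 8 beside 11.9% of all genes, with log2 changes of −1.09 and −0.60 (−1.12 to −0.11). *Insm1* and *Pax6* were at least 1.5-fold higher, 2 of 8 beside 9.66%, with log2 changes of 0.97 (0.67 to 1.29) and 0.68 (0.02 to 1.39). *Neurod1* was lower by 0.52 on the log2 scale (−0.84 to −0.21). These changes use the same 4 libraries as the treatment comparisons.

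**Figure D4:**
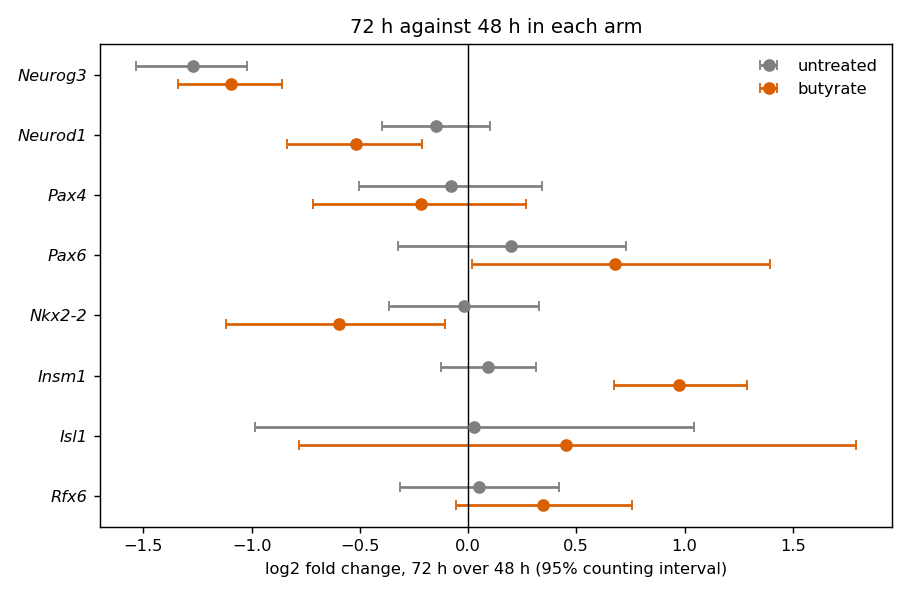
Log2 fold change of 72 h over 48 h for each transcription factor in untreated (grey) and butyrate-treated (orange) colonoids, with exact 95% intervals for counting error. *Neurog3* is low at 72 h in both arms, at −1.27 and −1.09, and the values of the other genes stay near 0 in untreated colonoids.

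Ratios of counts within a library do not depend on how libraries are scaled. There were 1.52 counts of *Neurog3* for each count of *Neurod1* in untreated colonoids at 48 h (1.30 to 1.78) and 2.17 with butyrate (1.86 to 2.54). At 72 h the ratio was 0.70 (0.57 to 0.84) untreated and 1.46 (1.17 to 1.82) with butyrate. At each time the butyrate library had the higher ratio of the early to the later factor, and the intervals did not overlap. *Insm1* per *Neurod1* was 1.20 untreated and 0.61 (0.49 to 0.75) with butyrate at 48 h, against 1.42 and 1.72 at 72 h, so that the butyrate library at 48 h stood below the other libraries. *Nkx2-2* per *Neurod1* was 0.50 and 0.41 at 48 h and 0.55 and 0.38 at 72 h, with overlapping intervals at each time. *Pax6* per *Pax4* was 0.59 untreated and 0.38 with butyrate at 48 h, then 0.72 and 0.73, and these intervals overlapped as well.

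The make-up of the group therefore differed between libraries. *Neurog3* gave 28.8% of the counts of the 8 genes in untreated colonoids at 48 h, 42.1% with butyrate, and 14.3% and 23.5% at 72 h. Its share was higher in the butyrate library at each time. Per count of the other 7 genes together, *Neurog3* had 0.40 counts (0.36 to 0.45) untreated and 0.73 (0.65 to 0.81) with butyrate at 48 h, then 0.17 (0.14 to 0.20) and 0.31 (0.26 to 0.36). *Insm1* gave 11.8% of the counts of the 8 genes with butyrate at 48 h and between 22.7% and 29.0% in the other libraries. Per count of *Chga*, a general marker of mature enteroendocrine cells, *Insm1* had 0.21 counts (0.19 to 0.24) untreated and 0.08 (0.07 to 0.09) with butyrate at 48 h. At 72 h these ratios were 0.19 (0.17 to 0.21) and 0.27 (0.24 to 0.32), so that butyrate was below untreated at the first time and above it at the second.

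With butyrate, genes for hormone products differed in both directions at 48 h and were mostly lower at 72 h. The list of hormones and granins, the contents of endocrine granules, held 12 genes, all of which passed the filter. They summed to 8182 counts without butyrate and 10927 with it at 48 h (log2 difference 0.24, 0.20 to 0.29), and to 10791 and 5531 at 72 h (log2 difference −0.83, −0.88 to −0.79). The higher sum at 48 h came largely from the granin *Chgb*, named after its values were seen, which was counted 4051 times without butyrate and 6041 times with it at 48 h, against 5456 and 2838 at 72 h. Without *Chgb* the log2 difference of the sum was 0.07 (0.01 to 0.13) at 48 h, then −0.86 (−0.92 to −0.79) at 72 h. The median over the 12 genes was 0.03 at 48 h and −0.98 at 72 h, and at 48 h 7 were higher and 5 lower by any amount. At 48 h 2 of the 12 were at least 1.5-fold lower and 2 higher, beside 8.90% and 13.1% of all genes, and at 72 h 10 were lower and none higher, beside 8.53% and 9.50%. The granin *Chga* was counted 1559 times without butyrate and 1839 times with it at 48 h, against 1936 and 863 at 72 h. The L-cell hormone gene *Gcg* had 1310 and 1505, then 1688 and 891, and *Pyy* had 329 and 381, then 381 and 127. The L-cell hormone gene *Insl5* was lower at both times, with 266 and 235, then 302 and 99 counts, as was *Cck*, with 127 and 110, then 179 and 107. *Sst*, the somatostatin gene, had 11 and 1, then 19 and 3, and *Tac1* had 25 and 11, then 30 and 0. The 2 genes at least 1.5-fold higher at 48 h, named after their values were seen, were *Tph1*, the enzyme of serotonin synthesis, with 83 and 220, then 162 and 71 counts, and *Nts*, the neurotensin gene, with 206 and 370, then 344 and 327. After size factor scaling, *Nts* was the only one of the 12 that was not lower at 72 h, with a log2 difference of 0.06. For each hormone or granin count, the 7 factors other than *Neurog3* had 0.128 counts (0.120 to 0.137) without butyrate and 0.0645 (0.0597 to 0.0696) with it at 48 h. At 72 h the ratios were 0.101 (0.0945 to 0.107) and 0.118 (0.109 to 0.128). With *Chgb* left out they were 0.253 and 0.144 at 48 h and 0.204 and 0.243 at 72 h. The butyrate library at 48 h was the lowest in both versions. This holds for the 7 factors only, because with *Neurog3* included the ratios were 0.180 and 0.111 (0.105 to 0.118) at 48 h and 0.117 (0.111 to 0.124) and 0.155 at 72 h, where the butyrate library at 48 h and the untreated library at 72 h had overlapping intervals. Without *Chgb* and with *Neurog3*, the untreated library at 72 h was the lowest, at 0.237 against 0.249, again with overlapping intervals.

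**Figure D5:**
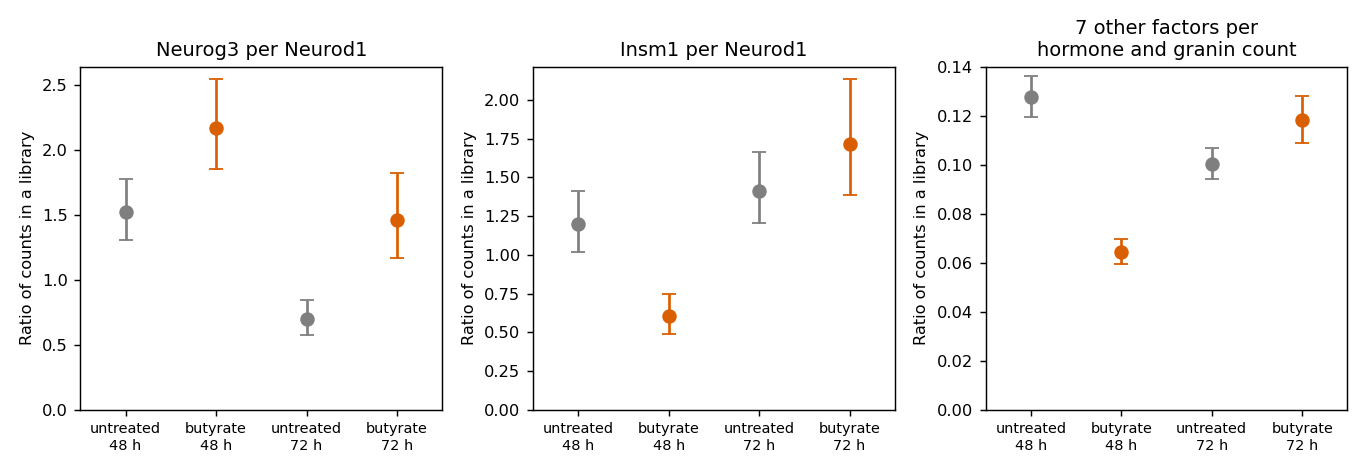
Ratios of counts within each library for *Neurog3* per *Neurod1*, *Insm1* per *Neurod1*, and the 7 factors other than *Neurog3* per hormone and granin count, in untreated (grey) and butyrate-treated (orange) colonoids, with exact 95% intervals. The butyrate library at 48 h has the highest *Neurog3* per *Neurod1*, at 2.17, and the lowest values in the other panels.

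Upstream of *Neurog3*, *Atoh1* was counted 1209 times without butyrate and 1662 times with it at 48 h, against 399 and 265 at 72 h, and like *Neurog3* it was higher in both 48 h libraries than in both 72 h libraries. For each count of *Atoh1* there were 0.35 and 0.31 counts of *Neurog3* at 48 h, and 0.45 (0.38 to 0.54) and 0.76 (0.63 to 0.91) at 72 h. *Hes1*, the Notch effector that represses *Atoh1*, differed by −0.21 and −0.17 with butyrate. Of 8 upstream secretory fate genes, 3 were at least 1.5-fold lower with butyrate at 48 h, none at 72 h and none higher at either time, beside the same shares of all genes as for the factors. In this list, *Spdef*, a goblet cell factor, differed by −0.44 and −0.50, *Gfi1* by −0.41 and −0.28, and the Notch ligand *Dll4* by −0.66 and −0.08.

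Of 17 other transcription factors of enteroendocrine cells, 15 passed the filter. With butyrate 6 were at least 1.5-fold lower and 2 higher at 48 h, and likewise 6 and 2 at 72 h. The shares of all genes were 8.90% lower and 13.1% higher at 48 h, and 8.53% and 9.50% at 72 h, so the number higher was near the background. The median log2 fold change was −0.50 at 48 h and −0.11 at 72 h. *Runx1t1* was counted 51 times without butyrate and 22 times with it at 48 h, against 73 and 40 at 72 h. In the other direction, *Rcor2*, a corepressor, had 313 and 954, then 216 and 669, and *Hhex*, a factor of somatostatin cells, had 18 and 43, then 35 and 58, while *Sst* itself was lower at both times.

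Several of the factors are also expressed in neurons. Of 9 genes of enteric neurons and glia, *Hand2* and *Sox10* had no count in any library, where a count of 0 allows up to 3 counts in a library. The list summed to 17.8 CPM without butyrate and 11.9 CPM with it at 48 h, against 19.5 and 11.6 CPM at 72 h, and among the 6 tested genes 3 were at least 1.5-fold lower and 1 higher at each time, beside the background shares given above. In this list *Ret*, a receptor of enteric neurons, had 217 and 137 counts, then 285 and 88. The part of these genes in the lower factor counts was not tested. The 7 mesenchymal genes summed to between 5.33 and 6.98 CPM, with *Col3a1* at 0 in all libraries, and the 6 immune genes to between 1.90 and 3.18 CPM.

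For each factor, the genes with the nearest pattern were sought among 11650 genes whose normalised counts averaged 50 or more, by the Euclidean distance of the centred log2 profiles over the 4 libraries. Nearest to *Neurog3* were *Acrbp*, *Ascl2* and *Hoxa6*, at distances of 0.20, 0.20 and 0.22. *Ascl2*, a factor of crypt stem cells, was counted 431 times without butyrate and 554 times with it at 48 h, against 195 and 248 at 72 h. Nearest to *Insm1* was *Id2*, an inhibitor of helix-loop-helix factors, at 0.13, with 734 and 350, then 904 and 582 counts. The nearest to *Neurod1* was *A1cf* at 0.04, to *Nkx2-2* *Gm45062* at 0.02, to *Pax4* *Rnaset2b* at 0.05, to *Pax6* *Tox* at 0.06, to *Isl1* *Aldh3a2* at 0.02 and to *Rfx6* *Sav1* at 0.01. Within the group, *Pax6* and *Isl1* were nearest to each other, at 0.23, followed by *Neurod1* and *Pax4* at 0.28, and *Neurog3* and *Insm1* were farthest apart, at 2.09. With 4 libraries, many genes share a pattern, and the distances are a description.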

How the data were processed

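Bulk RNA-seq of poly-A RNA was available for 4 libraries. The authors deposited whole-number counts per gene, without normalisation or a gene filter. Reads had been quantified with a kallisto-based pipeline (kallisto 0.44.0 and GRCm38.p6 in the submitters' processing notes) and summed to genes with tximport, so that the counts are rounded estimates. In the table, 26 names had been turned into dates and 2 names were repeated, none of them a gene of the group.

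The filter of the study was used, which keeps a gene that exceeds 10 counts in 2 libraries or more. Size factors came from DESeq2 1.42.0 and TMM factors from edgeR 4.0.16 in R 4.3.3. Intervals were computed with scipy 1.17.1 under Python 3.11.15 (numpy 2.4.6, pandas 2.3.3), and plots drawn with matplotlib 3.10.9. With 1 library per condition no p-value was computed, and 1.5-fold was used as the size of a difference. The sources mention no molecular identifiers, and reads may repeat a molecule, so intervals and floors cover counting error only. Positions and exon lengths came from GENCODE M21 (GRCm38). The steps were tested on simulated data. The genes and lists were chosen with earlier results of these data known. Named were all 8 genes, and, from each other list, some of the up to 4 genes that led it in one direction at 48 h and 72 h alike (ranked by the smaller of the changes), plus *Atoh1*, *Hes1*, *Chga*, *Pyy* and *Gcg*. *Epcam* and *Ret* came under this rule, and *Hand2*, *Sox10* and *Col3a1* were named because their counts were 0, after this was seen. Nearest profiles were sought for each factor. Some genes of the lists are not reported here. The alternatives were TMM scaling, total counts with and without mitochondrial genes, a pseudocount of 5, all genes with at least 1 count, a 2-fold size, factors averaging 50 or more normalised counts, sums without the most abundant gene and sums relative to hormones and granins.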

Additional observations from a re-analysis of the deposited data

Results flagged for a closer look

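Several genes around the enteroendocrine factors were higher with butyrate at 48 h and lower at 72 h, or the reverse over time, in single libraries, and none of these differences was tested against replicates. The log2 fold change of butyrate over untreated was 0.066 at 48 h and −1.04 at 72 h for *Chga*, 0.039 and −1.45 for *Pyy*, 0.028 and −0.79 for *Gcg*, and 0.29 and −0.46 for *Atoh1*. At 48 h the intervals of *Chga* (−0.03 to 0.16), *Pyy* (−0.18 to 0.26) and *Gcg* (−0.08 to 0.14) included 0. Among the other hormone and granin genes, *Tph1* had 1.22 at 48 h and −1.05 at 72 h, and *Chgb* had 0.40 and −0.81. The summed hormones and granins differed by 0.24 at 48 h and −0.83 at 72 h, and without *Chgb* by 0.07 and −0.86. From 48 h to 72 h the sum with *Chgb* differed by 0.35 in untreated and −0.73 in butyrate-treated colonoids. None of the 8 transcription factors had opposite signs with butyrate at 48 h and 72 h.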

How the results depend on the processing

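Of 128 recomputed fold changes of single factors under other scalings and a pseudocount of 5, 128 stayed within their counting intervals, and 2 of them changed sign at values near 0. The median of the group ranged from −0.59 to −0.46 at 48 h and from −0.50 to −0.44 at 72 h over the alternatives run. Total count scaling shifted the changes between 48 h and 72 h in untreated colonoids by −0.08 on the log2 scale, and no scaling shifted a comparison by more than that. With 2-fold in place of 1.5-fold, the number of factors lower with butyrate became 1 at 48 h and 1 at 72 h. Over time with butyrate, the number lower became 1 and the number higher became 0. The share of all genes past 2-fold was not computed, so these numbers cannot be set against it. With a pseudocount of 5, the number lower over time with butyrate also became 1, since *Nkx2-2* lies close to 1.5-fold. The summed counts without *Neurog3* differed by −0.74 at 48 h and −0.60 at 72 h. Relative to the hormone and granin counts, the sum of all 8 genes differed by −0.69 at 48 h and reversed to 0.40 at 72 h (0.42 without *Chgb*, and −0.51 at 48 h, an alternative chosen after seeing the data), because the hormone counts were lower by more than the factor counts in that library. With 1 library per condition there were no replicate numbers to pair. A model of treatment plus time, which pairs the libraries of a day, would leave 1 residual degree of freedom and was not fitted. *Isl1*, with 11 to 19 counts, is the factor most limited by depth.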

Other observations

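Genes of the secretory granule and its release were followed as a separate list of 12, of which 11 passed the filter. With butyrate 4 were at least 1.5-fold lower and 1 higher at 48 h, and 4 were lower and none higher at 72 h. Of all genes, 8.90% were lower and 13.1% higher at 48 h, and 8.53% and 9.50% at 72 h. *Cplx2*, which regulates vesicle fusion, was counted 610 times without butyrate and 176 times with it at 48 h, against 636 and 391 at 72 h. As for *Insm1*, its lowest count was in the butyrate library at 48 h, and its log2 fold change was −1.96 at 48 h and −0.57 at 72 h. *Scg3*, a granin that sorts hormones into granules, had 147 and 98 counts, then 125 and 67, and *Scgn*, a calcium-binding protein of endocrine cells, had 49 and 18, then 37 and 18. The synaptic vesicle protein gene *Syp* differed by −0.26 and −0.54. The list as a whole was mixed at 48 h, with a median of −0.26 and a summed level of 187.2 CPM without butyrate and 179.1 CPM with it. At 72 h the median was −0.54. The gene at least 1.5-fold higher at 48 h, named after its values were seen, was *Scg5*, a chaperone of prohormone processing, with 56 and 120, then 82 and 88 counts.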
